A study of Mus musculus with 7 samples.

Results

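The 32 lysosome genes described here encode proteins of the lysosome, its proton pump and the transcription factors that control it. They were taken from a list of gene names, not by a rule on expression, but with earlier results of these data known. All 32 were among the 11677 named genes assembled in at least 1 of 7 RNA sequencing libraries of mouse B cells. In 6 libraries all 32 were assembled under their own name. In the library of BAFF at 30 h, 31 were.

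The B cells were primary wild-type cells of the C57BL/6 background, and each library was a condition of its own. There was an unstimulated library at 0 h. Anti-IgM, an antibody that crosslinks the B cell antigen receptor, BAFF, a survival factor of the TNF family, or the combination of both was given for 8 h or 30 h, which made 6 cultured libraries. No cells cultured without a stimulus were among the samples, so in any difference from the unstimulated library the time in culture and the stimulus cannot be told apart. Doses, the number of animals, whether animals were pooled and the sorting of the cells were not given in the sources used here. With 1 library per condition, no difference between conditions could be tested. Every interval below covers counting error only.

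Lysosomes are acidic compartments in which cathepsins and other hydrolases break down proteins, sugars and lipids. A vacuolar proton pump acidifies them, and the helix-loop-helix factors TFEB and TFE3 bind E-box sequences in the promoters of many lysosome genes. In B cells lysosomal proteases also cut the invariant chain and antigens taken up by the antigen receptor, so that peptides can be loaded on MHC class II.

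Levels are FPKM, fragments counted relative to transcript length and to the mapped fragments of the library, summed over the assembled transcripts of a gene. Such a level is relative to the other RNA of the same library. Comparing a gene required transcripts in both libraries and an FPKM of 1 or more in either. To be counted as higher or lower, its FPKM + 1 had to differ 2-fold or more, with counting intervals that stayed apart. Differences below are differences of log2(FPKM + 1), with 2 SD of counting error where an error is given, and understate the change of genes of low level. The assembly was made separately in each library, so a gene split into separate pieces can gain FPKM without gaining reads. As a guard, an exon density was calculated from the same deposited values, by spreading the FPKM of every piece over the exons of the gene. It is not an independent measure.

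The cells carried the markers of B cells. Of 10 B cell markers, 9 were assembled in every library (Cd79a was not assembled under its name). Their summed FPKM was 2385 unstimulated, 1110, 2295 and 1381 at 8 h with anti-IgM, BAFF and the combination, and 1858, 2667 and 1808 at 30 h. It was thus lowest in the 8 h libraries with anti-IgM, where 4 of 9 B cell markers were counted lower in each (medians -0.97 and -0.89). Of all genes, 10.5% were counted lower with anti-IgM and 8.91% with the combination. At 30 h, 1 of 9 was higher and 4 lower with anti-IgM (median -0.88), with 8.44% and 7.32% of all genes. With BAFF it was 1 and 0 (-0.20, with 5.29% and 4.1%), and with both 0 and 4 (-0.56, with 8.37% and 7.89%). Directly against BAFF the median of the B cell markers with anti-IgM was -0.99 at 8 h and -0.60 at 30 h. Their part in the lysosome values was not tested. T cell markers summed to at most 7.77 FPKM, and neutrophil markers were assembled only in the unstimulated library, at 5.44 FPKM for 2 of 9. Macrophages, which are rich in lysosomes, left a larger trace. Of 20 macrophage markers, 19 were assembled in the unstimulated library, where they summed to 457 FPKM. At 8 h, 10, 11 and 10 were assembled with anti-IgM, BAFF and both, at 49.0, 44.1 and 50.6 FPKM, with Cd163, Marco, Mertk and Mrc1 assembled in none of the 3. At 30 h the sums were 131, 147 and 89.6 FPKM. Of 9 dendritic cell markers, 8 were assembled in the unstimulated library, at 76.5 FPKM. At 8 h, 5, 3 and 3 were assembled, at 83.6, 44.9 and 79.1 FPKM, with Clec9a, Xcr1 and Cd209a in none of them. At 30 h, 4, 4 and 5 were assembled, at 48.4, 47.2 and 50.6 FPKM. The part of macrophage or dendritic cell RNA in the differences from the unstimulated library was not tested. Fewer cells of a type and less RNA per cell cannot be told apart. The 3 libraries of 8 h had nearly the same macrophage sum, but not the same markers. C1qb and C1qc were assembled with BAFF alone only, and Csf1r only in the libraries with anti-IgM. Comparisons among the libraries of 8 h do not involve the unstimulated library, but an equal macrophage part in them was not tested. Mapped reads, calculated back from the intervals, were between 18.75 and 28.61 M per library.

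Against the unstimulated library, lysosome genes lay lower at 8 h and nearer to it at 30 h. With anti-IgM at 8 h, 2 of 32 genes were counted higher and 7 lower, where 10.8% of all genes compared were higher and 10.5% lower. Scaled to the median of expressed genes, 11 were lower, and scaled to the upper quartile 10. The median difference of the 32 was -0.49, against 0.04 for all genes. With BAFF at 8 h, 3 were higher and 4 lower of 32, with 5.66% and 4.35% of all genes, and the median was -0.29 against 0.12. With both stimuli at 8 h, 3 were higher and 7 lower of 32, with 12.3% and 8.91% of all genes, and the median was -0.35 against 0.11. The same scalings made that count 1 higher and 9 lower, and 1 higher and 11 lower.

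At 30 h the counts were smaller. With anti-IgM 1 gene was higher and 4 lower of 32 (8.44% and 7.32% of all genes), with a median of -0.13 against 0.06. BAFF had 1 higher and 2 lower of the 31 compared (5.29% and 4.1% of all genes), with a median of -0.13 against 0.07. Both stimuli had 2 higher and 3 lower of 32 (8.37% and 7.89%), with a median of -0.20 against 0.02. At 8 h the share counted lower was above it in each of the 3 libraries, while the share counted higher was below it with anti-IgM and with both stimuli. The 6 comparisons share the unstimulated library. By exon density, 7, 4 and 7 of the genes counted at 8 h and 3, 1 and 3 of those at 30 h also differed 2-fold the same way.

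**Figure D1:**
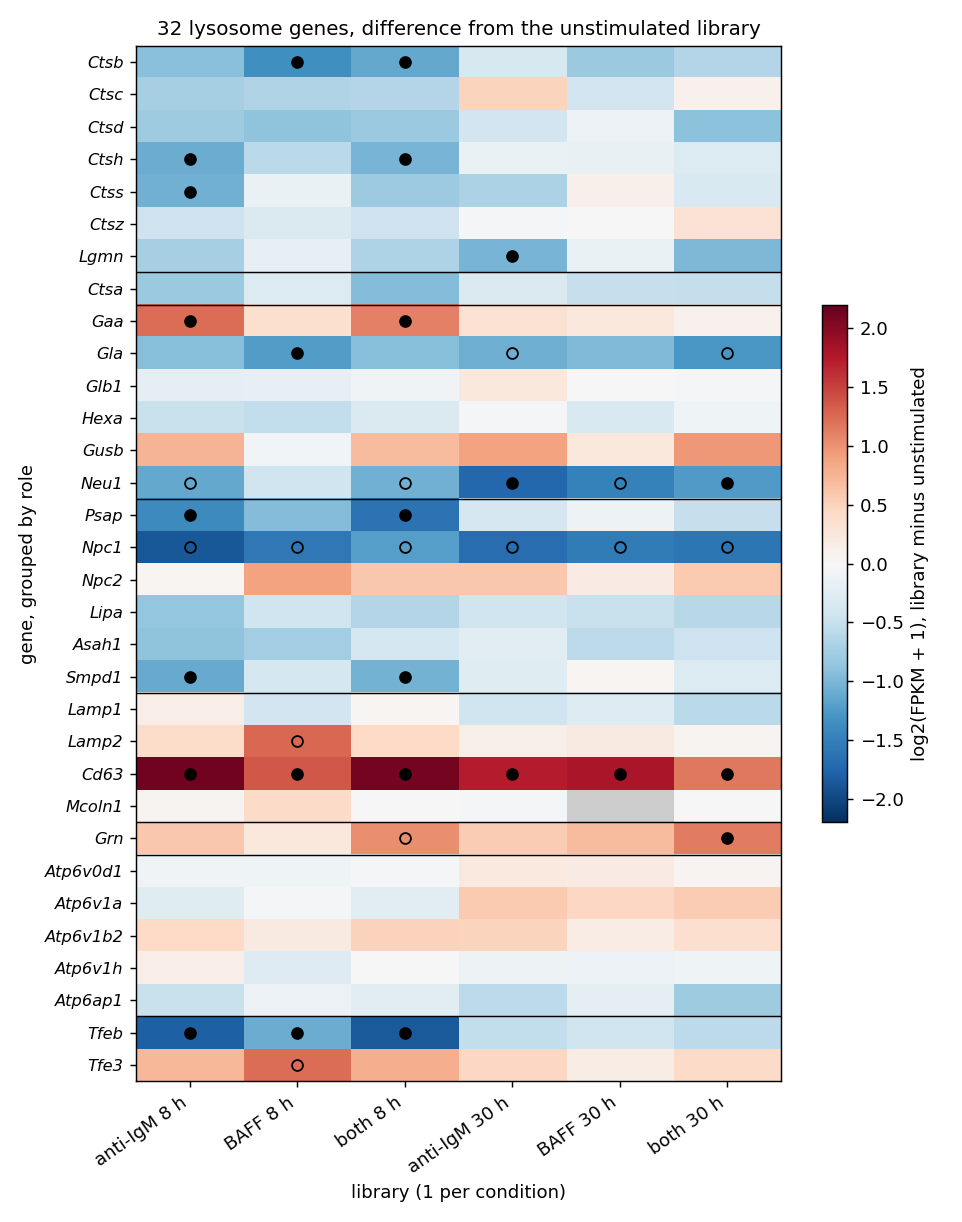
Differences of log2(FPKM + 1) from the unstimulated library (colour) for the 32 lysosome genes (rows, grouped by role) in the 6 cultured libraries (columns). Filled circles mark genes counted as different that also differ 2-fold by exon density, open circles genes counted by FPKM alone, and grey a gene not assembled under its name. Most circles at 8 h sit on lower values, Cd63 is higher in every column, and the proton pump rows hold no circle.

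The 7 cysteine and aspartic protease genes had lower FPKM in each of the 3 libraries of 8 h than in the unstimulated one. Their summed FPKM was 1035 unstimulated, 563, 794 and 607 at 8 h with anti-IgM, BAFF and the combination, and 810, 991 and 874 at 30 h. The medians at 8 h were -0.78, -0.59 and -0.79, with 2, 1 and 2 of 7 genes counted lower and 0 higher. Of all genes, 10.5%, 4.35% and 8.91% were lower there and 10.8%, 5.66% and 12.3% higher. Values of single genes are given in the same order throughout: unstimulated, then the 8 h libraries with anti-IgM, with BAFF and with both, then those of 30 h likewise.

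Ctsb encodes cathepsin B, a cysteine protease (mm10 chromosome 14, 63122462 to 63145923, plus strand). Its FPKM was 69.2, then 36.1, 26.6 and 31.1 at 8 h, and 54.0, 39.1 and 44.0 at 30 h. It was highest in the unstimulated library and lowest with BAFF at 8 h, and was counted lower with BAFF (-1.35 ± 0.07) and with both (-1.13 ± 0.07) at 8 h. Within each time the anti-IgM library had more Ctsb than the BAFF library, with intervals apart.

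The remaining proteases were outside the rule for full values, and those with values here were picked after the values were seen. Ctss, cathepsin S, the main protease of invariant chain cleavage in B cells, was at 411, then 196, 370 and 237, and 252, 445 and 325 FPKM. Both libraries with BAFF alone were near the unstimulated one, and every library with anti-IgM was below them. It was counted lower with anti-IgM at 8 h (-1.06 ± 0.05). Ctsh, an aminopeptidase, was at 172, then 79.8, 114 and 83.7, and 155, 153 and 140, lower at 8 h and near the start at 30 h. Lgmn, the asparaginyl endopeptidase, was at 75.3, then 44.8, 66.3 and 46.5, and 36.6, 68.2 and 37.6, and was counted lower with anti-IgM at 30 h (-1.02 ± 0.09). Here too the libraries with BAFF alone stayed closest to the unstimulated one.

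Of the other proteases, Ctsc, which activates granule proteases, ranged from 38.9 FPKM with anti-IgM at 8 h to 91.6 with anti-IgM at 30 h. Ctsd, an aspartic protease, ranged from 33.2 with both at 30 h to 62.9 unstimulated, and Ctsz, a carboxypeptidase, from 131 with anti-IgM at 8 h to 225 with both at 30 h. Ctsa, the serine carboxypeptidase that protects beta-galactosidase and neuraminidase, ranged from 50.4 with both at 8 h to 98.0 unstimulated. None of these was counted against the unstimulated library.

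The 6 genes of lipid and sphingolipid handling had medians of -0.99, -0.61 and -0.84 at 8 h and -0.32, -0.30 and -0.48 at 30 h. With anti-IgM and with both at 8 h, 3 of 6 were counted lower, where 10.5% and 8.91% of all genes were. In each, 2 of the 3 also differed 2-fold by exon density, Npc1 being the exception. By exon density the medians at 8 h were -0.69, -0.41 and -0.63. Psap, which encodes prosaposin, the precursor of the saposins that help degrade sphingolipids (chromosome 10, 60277628 to 60302600, plus strand), had the highest level of the 32 genes in the unstimulated library. Its FPKM was 421, then 159, 218 and 137 at 8 h, and 325, 391 and 296 at 30 h. All libraries of 8 h were below all of 30 h, and those below the unstimulated one. The difference was -1.40 ± 0.03 with anti-IgM and -1.62 ± 0.04 with both at 8 h, both counted. From 8 h to 30 h it was counted higher with anti-IgM (1.03 ± 0.03) and with both (1.11 ± 0.04).

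Smpd1, acid sphingomyelinase, was at 10.6, then 4.39, 7.87 and 4.64, and 8.65, 10.9 and 8.47 FPKM. It was counted lower with anti-IgM (-1.11 ± 0.18) and with both (-1.04 ± 0.27) at 8 h, and the libraries of 30 h were back near the start. Npc1, the cholesterol exporter of the lysosomal membrane, was counted lower in all 6 comparisons by FPKM. Its FPKM was 17.0, then 3.95, 5.08 and 6.81, and 4.61, 5.17 and 4.96. In the unstimulated library, however, Npc1 was assembled as 2 separate pieces of 9.15 and 7.88 FPKM, whose sum counts the gene once per piece. Its exon density was 7.80, then 5.05, 6.18 and 4.70, and 5.44, 6.21 and 5.30, with no 2-fold difference.

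Of the other lipid genes, Npc2, the soluble cholesterol carrier, ranged from 30.4 FPKM unstimulated to 57.3 with BAFF at 8 h. By exon density, however, the BAFF library of 8 h was at 29.5 against 29.0 unstimulated, and anti-IgM at 30 h was highest (46.3). Lipa, acid lipase, ranged from 13.1 with anti-IgM at 8 h to 24.4 unstimulated, and Asah1, acid ceramidase, from 14.9 with anti-IgM at 8 h to 28.2 unstimulated. None of these 3 was counted in any comparison.

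The 6 sugar hydrolases went in both directions. Gaa, acid alpha-glucosidase, which degrades glycogen (chromosome 11, 119267967 to 119285698, plus strand), was at 9.59, then 23.9, 12.5 and 22.0, and 12.3, 11.4 and 10.3 FPKM. The 8 h libraries with anti-IgM stood above the other 5. It was counted higher with anti-IgM (1.23 ± 0.46) and with both (1.12 ± 0.46) at 8 h, and lower at 30 h than at 8 h with both (-1.03 ± 0.13). Gusb, beta-glucuronidase, picked after its values were seen, was at 17.5, then 30.1, 16.8 and 29.0, and 33.3, 20.8 and 34.6. Every library with anti-IgM was above every one without it, but no difference from the unstimulated library reached 2-fold.

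Neu1, neuraminidase 1, which removes sialic acid (chromosome 17, 34931253 to 34937297, plus strand), was at 35.9, then 15.9, 26.2 and 16.8, and 10.2, 12.1 and 14.5 FPKM. It was counted lower in 5 of the 6 comparisons, BAFF at 8 h being the exception. Its exon density was 16.5, then 9.53, 14.8 and 8.50, and 6.15, 8.84 and 6.42, which gave a 2-fold difference only with anti-IgM (-1.29) and with both (-1.24) at 30 h. Gla, alpha-galactosidase A, was at 7.56, then 3.45, 2.65 and 3.48, and 3.05, 3.37 and 2.52. It was counted lower with BAFF at 8 h and with anti-IgM and both at 30 h. The unstimulated FPKM, however, was a sum over 3 partial models of 1.85, 2.85 and 2.87 FPKM, none of which reached the gene start. With anti-IgM and with both, at each time, Gla was assembled as 1 model of 7 exons. By exon density Gla was at 3.70, then 3.31, 1.14 and 3.17, and 2.88, 1.495 and 2.37, 2-fold lower only with BAFF at 8 h. The lowest densities were those with BAFF alone, where the assembled pieces covered 42.9% of its exon bases at 8 h and 54.3% at 30 h. With anti-IgM they covered 95.9% and 94.5%, so these low densities cannot be told apart from incomplete assembly. Glb1, beta-galactosidase, ranged from 9.76 to 13.7 FPKM and Hexa, beta-hexosaminidase A, from 25.9 to 38.3, and neither was counted in any comparison.

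Cd63, the tetraspanin of late endosomes and lysosomes (chromosome 10, 128908919 to 128912818, plus strand), was the gene most often counted higher. Its FPKM was 4.59, then 23.4, 13.4 and 23.2 at 8 h, and 17.5, 18.5 and 11.4 at 30 h. The unstimulated library was below all 6 cultured ones, and its interval, from 3.39 to 5.78, touched none of theirs. The difference was 2.12 ± 0.34 with anti-IgM, 1.37 ± 0.41 with BAFF and 2.11 ± 0.35 with both at 8 h. At 30 h it was 1.72 ± 0.35, 1.7997 ± 0.35 and 1.15 ± 0.39. Exon density was 2-fold higher in all 6 as well. In the same comparisons the macrophage list had medians between -2.96 and -1.41, although single markers were higher, such as Marco with anti-IgM at 30 h (1.93 unstimulated, 9.57 FPKM), and its part in Cd63 was not tested.

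Lamp2, a heavily glycosylated protein of the lysosomal membrane, was at 32.01, then 42.6, 78.3 and 44.0, and 35.1, 36.9 and 33.6 FPKM. The BAFF library of 8 h stood out and was counted higher (1.26 ± 0.14). There Lamp2 was assembled as 2 separate pieces of 43.8 and 34.5 FPKM, and its exon density of 24.9 was near the unstimulated 22.3, so the count rests on the split. The highest exon densities were those with anti-IgM (32.7) and both (33.0) at 8 h.

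Lamp2 was assembled with either of 2 last exons, which encode different ends of the protein. This was looked at after the values were seen. The form with the last exon farther from the start of the gene made up 37.4% of the FPKM of both forms in the unstimulated library, 22.0%, 36.6% and 25.3% in the same order at 8 h, and 25.2%, 33.5% and 27.1% at 30 h. Its share was thus lower in all 4 libraries with anti-IgM than in the 3 without it. The form with the near last exon was at 20.1, then 33.3, 21.9 and 32.8, and 26.2, 24.6 and 24.4 FPKM. The far form was at 11.96, then 9.36, 12.6 and 11.1, and 8.85, 12.4 and 9.11. At 8 h the near form was higher and the far form lower with anti-IgM than with BAFF, with intervals apart, but with both stimuli the interval of the far form overlapped that with BAFF. In the BAFF library of 8 h both forms were assembled without the first exons, as pieces of 1220 and 3033 bases, and the piece of 43.8 FPKM had neither last exon. At 30 h the intervals of the near form overlapped between anti-IgM (25.0 to 27.4) and BAFF (23.3 to 25.8).

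**Figure D2:**
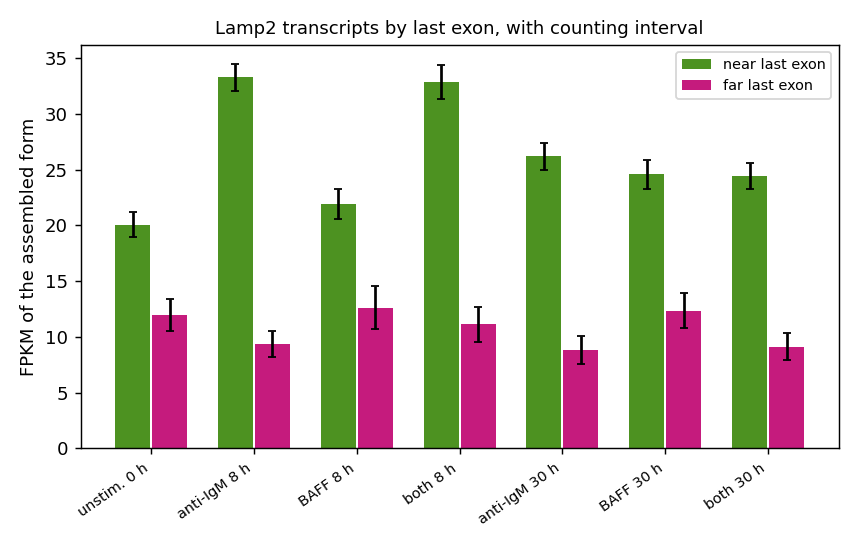
FPKM of the assembled Lamp2 transcripts with the near and the far last exon in each of the 7 libraries, with counting intervals as error bars. The near form is at 33.3 and 32.8 FPKM in the 8 h libraries with anti-IgM and between 20.1 and 26.2 elsewhere.

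Of the other membrane proteins, Lamp1 ranged from 61.3 FPKM with both at 30 h to 103 with anti-IgM at 8 h. Mcoln1, the calcium channel TRPML1, ranged from 17.5 to 24.3 in the 6 libraries where it was assembled. In the library of BAFF at 30 h no transcript carried its name, and its exon density was 19.2. Its models overlap the neighbouring gene Pnpla6 in the other 6 libraries. Neither was counted against the unstimulated library. Grn, which encodes progranulin, a secreted and lysosomal growth factor precursor (chromosome 11, 102430322 to 102436809, plus strand), was at 36.6, then 55.8, 43.0 and 74.9, and 54.5, 59.8 and 82.2 FPKM. All 6 cultured libraries were above the unstimulated one, and the 2 with both stimuli were highest. It was counted higher with both at 8 h (1.02 ± 0.10, 0.96 by exon density) and at 30 h (1.15 ± 0.10).

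No proton pump gene was counted against the unstimulated library. For Atp6v0d1, Atp6v1a, Atp6v1b2 and Atp6v1h, which encode subunits of the pump, and Atp6ap1, which encodes an accessory protein, the count was 0 of 5 in each of the 6 comparisons. With at most 12.3% of all genes counted higher and 10.5% lower in these comparisons, 0 of 5 is near the background. Their medians lay between -0.09 and 0.21. Summed FPKM was 218 unstimulated, 203, 208 and 217 at 8 h and 216, 220 and 199 at 30 h, while the summed protease FPKM was as low as 563 with anti-IgM at 8 h. The ranges were 41.4 to 51.1 for Atp6v0d1, 12.9 to 23.9 for Atp6v1a, 39.0 to 56.0 for Atp6v1b2, 22.2 to 30.3 for Atp6v1h and 53.2 to 91.9 for Atp6ap1.

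**Figure D3:**
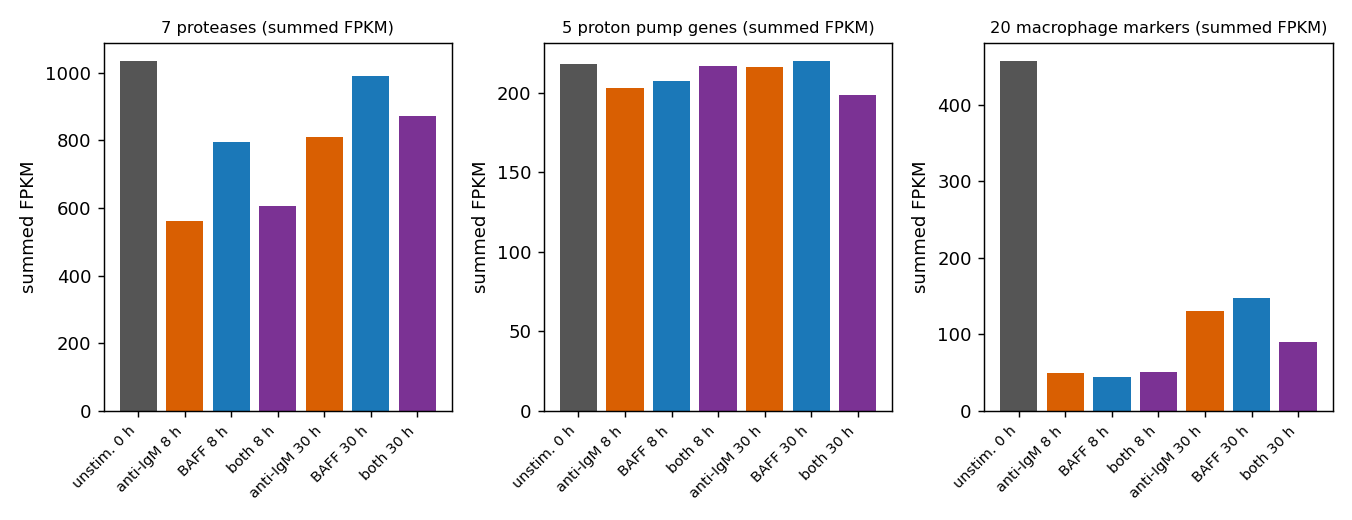
Summed FPKM of the 7 protease genes, the 5 proton pump genes and the 20 macrophage markers in each of the 7 libraries. The protease sum is 1035 unstimulated and 563 to 794 at 8 h, the pump sum is between 199 and 220, and the macrophage sum is 457 unstimulated and 44.1 to 50.6 at 8 h.

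The 2 transcription factors went apart. Tfeb (chromosome 17, 47737037 to 47792416, plus strand) was at 52.3 FPKM, then 14.3, 24.0 and 13.9 at 8 h, and 35.7, 38.1 and 34.9 at 30 h. All libraries of 8 h were below all of 30 h, which were below the unstimulated one. The difference was -1.804 ± 0.11 with anti-IgM, -1.09 ± 0.11 with BAFF and -1.84 ± 0.13 with both at 8 h, all counted. From 8 h to 30 h it was counted higher with anti-IgM (1.27 ± 0.12) and with both (1.27 ± 0.14), also by exon density. Tfe3 (chromosome X, 7762661 to 7775202, plus strand) was at 10.7, then 18.4, 26.3 and 19.4, and 15.01, 12.2 and 14.7. It was lowest in the unstimulated library, whose interval of 6.92 to 14.5 was wide, and counted higher with BAFF at 8 h only (1.22 ± 0.48). That library held 2 separate pieces of 17.5 and 8.85 FPKM, and the exon density there was 13.8 against 9.58 unstimulated, under 2-fold. With anti-IgM and both at 8 h the exon density was 17.998 and 18.4.

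**Figure D4:**
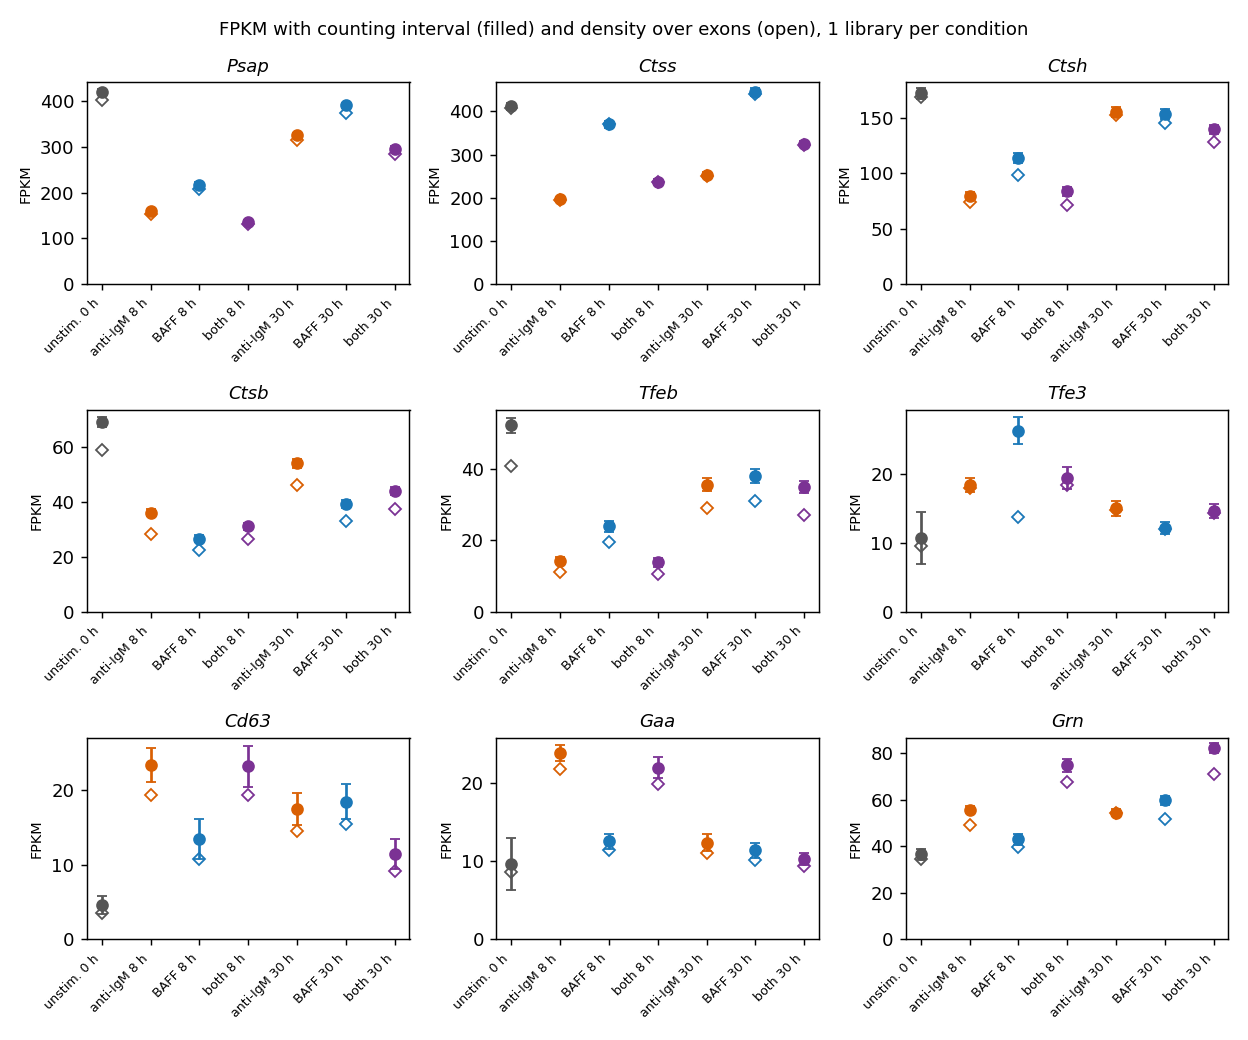
FPKM with its counting interval (filled points) and exon density (open diamonds) of 9 lysosome genes in each of the 7 libraries. Psap, Ctsh and Tfeb are lowest at 8 h, Ctss is lower with anti-IgM than with BAFF alone at both times, and Cd63 is lowest unstimulated, at 4.59 FPKM.

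The binding sequences of TFEB and TFE3 were looked for in the promoters, from 250 bases before to 50 bases after the gene start, in RefSeq's table for GRCm38.p6. The table held 26 of the 32 genes. Atp6v1b2, Atp6v1h, Asah1, Ctsb, Ctsh and Npc1 were not matched. The motifs searched, on both strands, were the E-box CACGTG and its extensions TCACGTG and TCACGTGA, each of which contains the one before. TCACGTGA was found in 6 of 26 promoters (23.1%), against 1.12% of 27025 genes in the table and 2.40% of 8350 genes expressed here. TCACGTG was found in 10 (38.5%, against 4.29% and 7.25%), and CACGTG in the same 10 (against 8.09% and 12.2%). The motifs were searched because TFEB and TFE3 are known to bind them in promoters of lysosome genes. A higher share in such genes is therefore description and no independent evidence. A match describes the sequence and shows no binding, and other helix-loop-helix factors bind the same E-box. The sites of the 6 genes with the longest motif, and of Gaa and Lgmn as genes counted in a comparison, are shown as 30 bases, 5′ to 3′ on the strand of the gene, with the motif in capitals.
Atp6v0d1: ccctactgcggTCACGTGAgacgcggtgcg
Atp6v1a: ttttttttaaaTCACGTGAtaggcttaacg
Ctsa: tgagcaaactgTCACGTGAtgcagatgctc
Ctsd: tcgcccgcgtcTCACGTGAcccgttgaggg
Gla: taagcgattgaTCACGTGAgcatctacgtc
Mcoln1: aggcgccccgcTCACGTGAccgcggcgcat
Gaa: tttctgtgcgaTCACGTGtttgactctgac
Lgmn: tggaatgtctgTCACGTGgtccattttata

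The sites lie at chr8:105566050-105566079 (Atp6v0d1, minus strand), chr16:44139373-44139402 (Atp6v1a, minus), chr2:164833749-164833778 (Ctsa, plus), chr7:142387908-142387937 (Ctsd, minus), chrX:134601215-134601244 (Gla, minus), chr8:3500462-3500491 (Mcoln1, plus), chr11:119267811-119267840 (Gaa, plus) and chr12:102439124-102439153 (Lgmn, minus). Relative to the RefSeq gene start, the motif begins at -4 in Atp6v0d1, -132 in Atp6v1a, -13 in Ctsa, -99 in Ctsd, -228 in Gla, -46 in Mcoln1, -141 in Gaa and -50 in Lgmn. The RefSeq start is not always the start of the assembled transcripts. The Ctsa site lies 849 to 875 bases and the Lgmn site 599 to 639 bases inside the assembled gene in all 7 libraries, so neither precedes the transcripts measured here. For Atp6v1a the site lay inside the assembled gene in 4 of 7 libraries.

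Medians of the genes with and without the longest motif were close at 8 h with each single stimulus. With anti-IgM, 0 of 6 genes with TCACGTGA were counted and their median was -0.52. Of the 20 genes in the table without it, 2 were higher and 5 lower, with a median of -0.47. These 20 are not free of E-boxes, as Gaa, Glb1, Lamp1 and Lgmn carry TCACGTG, and they include Tfeb itself. With BAFF the medians were -0.19 and -0.18. With both stimuli they were -0.53 and -0.28. Tfeb was lower in each of these 3 libraries than in the unstimulated one.

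Anti-IgM and BAFF were also set directly against each other at the same time, without the unstimulated library. None of 32 lysosome genes was counted at 8 h (13.3% of all genes compared were) and none of 31 at 30 h (8.71%), so no difference reached 2-fold by FPKM. By exon density Gla was 2-fold higher with anti-IgM at 8 h (1.01). Its exons were only partly assembled with BAFF, as given above, and its FPKM intervals overlapped. Medians were -0.18 at 8 h (all genes -0.05) and 0.02 at 30 h (0.00). By exon density the medians were only -0.017 at 8 h (all genes -0.006) and 0.026 at 30 h (0.011). Smaller differences had intervals apart. At 8 h, 8 genes were higher with anti-IgM, 17 lower and 7 overlapped, where 30.2% of all genes were higher and 33.9% lower by their intervals alone. Of these 17, Npc2, Lamp2 and Tfe3 lay on the other side by exon density (0.03, 0.38 and 0.36). At 30 h, 9 were higher, 8 lower and 14 overlapped, with 29% and 27.5% of all genes. There Asah1 was higher by FPKM but at -0.12 by exon density, and Grn lower but at 0.07.

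Of the 31 genes compared at both times, 8 stood on the same side at both (25.8%) and 5 on opposite sides (16.1%), where 30.0% and 11.1% of all genes did, so the count is near the background. Ctsb (0.43 at 8 h, 0.46 at 30 h), Gusb (0.81, 0.65) and Atp6v1b2 (0.24, 0.31) were higher with anti-IgM. Ctss (-0.91, -0.82), Lgmn (-0.56, -0.88), Smpd1 (-0.72, -0.31), Psap (-0.45, -0.26) and Atp6ap1 (-0.36, -0.38) were lower with anti-IgM. Exon density lay on the same side in each. At 8 h alone, Gaa (0.88), Cd63 (0.76) and Tfeb (-0.71) also had intervals apart, and at 30 h they overlapped (0.11, -0.07 and -0.09). Lamp2 differed by -0.86 at 8 h by FPKM and by 0.38 by exon density.

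**Figure D5:**
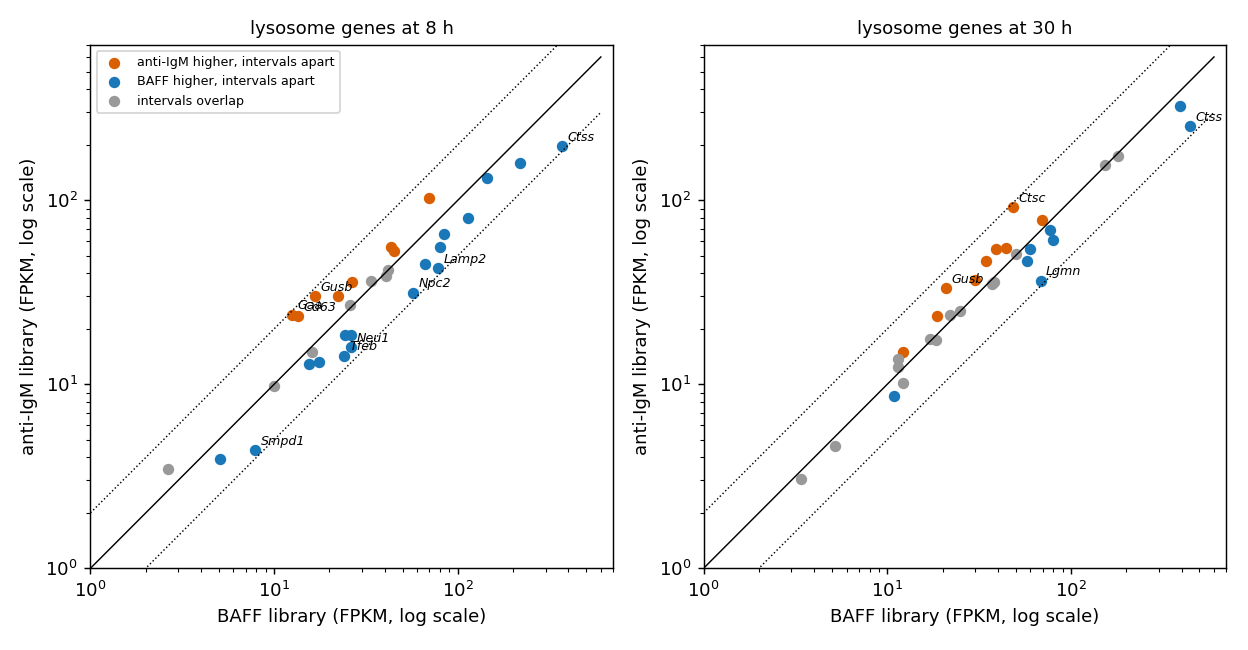
FPKM of the lysosome genes with BAFF (horizontal, log scale) and with anti-IgM (vertical, log scale), at 8 h (left) and 30 h (right). Colours mark on which side the counting intervals lie apart, the solid line is equality and the dotted lines are 2-fold. All points lie near or inside the dotted lines, with Ctss at 196 against 370 FPKM at 8 h and 252 against 445 at 30 h.

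BAFF added to anti-IgM, or anti-IgM added to BAFF, left no lysosome gene counted at either time. The both-stimuli library was compared with the anti-IgM library at 8 h (6.24% of all genes counted) and 30 h (5.34%), and with the BAFF library at 8 h (12.5%) and 30 h (8.19%). The medians of the lysosome genes were 0.05, -0.09, -0.05 and -0.05, and those of all genes 0.02, -0.04, 0.01 and -0.04. Single genes differed by at most 0.79 upward, with both against BAFF at 8 h, and by -0.84 downward, with both against BAFF at 30 h.

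Between 8 h and 30 h of the same stimulus, genes that had been low at 8 h were often higher again, as they were over all genes. With anti-IgM, 21 of 32 were below the unstimulated FPKM at 8 h, and 17 of these (81.0%) were higher at 30 h than at 8 h. With BAFF it was 20 of 24 (83.3%), and with both stimuli 14 of 22 (63.6%). Over all genes the same shares were 69.4%, 64.4% and 61.1%. Lysosome genes that were high at 8 h were likewise often lower at 30 h, 8 of 11, 5 of 7 and 8 of 10 (69.7%, 69.2% and 74.3% over all genes). Both directions share the 8 h library that defines the genes. With anti-IgM 3 genes were counted higher, Ctsc, Psap and Tfeb, and 0 lower, where 8.02% of all genes were higher and 5.4% lower. Ctsc fell short of 2-fold by exon density. With BAFF 0 were counted higher and 3 lower, Neu1, Lamp2 and Tfe3, none of them 2-fold by exon density (3.64% and 4.26% of all genes). With both, Psap and Tfeb were higher and Gaa lower (5.62% and 7.02%). The macrophage sum was also higher at 30 h than at 8 h with every stimulus, and its part in these values was not tested.

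The wider pathway was covered by 6 lists with 142 genes, none of them among the 32. In the list of 42 other lysosomal hydrolases, 2 were higher and 11 lower of 36 compared with anti-IgM at 8 h (median -0.49, with 10.8% and 10.5% of all genes), 1 and 4 with BAFF (-0.18, with 5.66% and 4.35%), and 1 and 10 with both (-0.32, with 12.3% and 8.91%). At 30 h the counts were 1 and 4, 2 and 1, and 1 and 4. The shares of all genes were 8.44% and 7.32%, 5.29% and 4.1%, and 8.37% and 7.89%. Acp5, tartrate-resistant acid phosphatase, a macrophage and osteoclast enzyme also found in other cells, was at 126 FPKM, then 9.36, 43.6 and 9.38, and 19.3, 64.1 and 13.4, higher with BAFF alone than in every library with anti-IgM. Sgsh, a heparan sulfatase, was at 14.6, then 3.86, 9.46 and 3.42, and 4.78, 10.6 and 4.92, in the same order. Ctsl, cathepsin L, was at 7.92 unstimulated and from 1.70 to 3.92 in the cultured libraries. Acp2, lysosomal acid phosphatase, was at 9.58 unstimulated and from 2.05 to 2.45 in the 4 cultured libraries that assembled it.

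Other membrane and sorting genes were counted in both directions, 3 higher and 2 lower of 22 with anti-IgM at 8 h (median -0.07), which is near the 10.8% and 10.5% of all genes. With BAFF at 8 h, 1 was higher and 3 lower of 22 (-0.11, with 5.66% and 4.35% of all genes). With both it was 1 and 1 (-0.01, with 12.3% and 8.91%). At 30 h the counts were 1 and 3 of 23, 0 and 1 of 23, and 1 and 0 of 22. All genes had 8.44% and 7.32%, 5.29% and 4.1%, and 8.37% and 7.89% there. Litaf, which sorts proteins to lysosomes, was at 7.20 FPKM, then 46.4, 15.5 and 48.9, and 38.0, 12.9 and 32.01, with all 4 libraries with anti-IgM above the other 3. Gnptab, which makes the mannose 6-phosphate tag, was at 32.3 unstimulated and 11.01 to 30.6 in culture, but its exon density lay between 10.99 and 16.1 in all 7 libraries. Slc36a1, an amino acid transporter, and Slc11a1, a metal transporter of phagosomes, were at 11.04 and 8.18 unstimulated and at most 8.20 and 5.52 in culture. Of the other proton pump subunits, 0 were higher and 1 lower of 13 with anti-IgM at 8 h (median 0.08), again near the background. The lower one was Tcirg1, at 38.8, then 18.3, 25.5 and 15.1, and 34.4, 30.8 and 28.7. Atp6v0b ranged from 59.5 to 132 FPKM, Atp6v0a1 from 17.9 to 36.9 and Atp6v1g2 from 1.46 to 4.73 where it was assembled.

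The list of nutrient sensing and TFEB control, with the mTORC1 and scaffold genes through which lysosomes hold TFEB protein in the cytosol, had 1 higher and 1 lower of 19 with anti-IgM at 8 h (median 0.04) and at most 1 in either direction in the other 5 comparisons, near or below the background. Mlst8, an mTOR subunit, was at 10.95, then 24.3, 24.5 and 18.5, and 13.4, 22.2 and 12.6, and Lamtor2, a lysosomal scaffold, at 81.6 unstimulated and, lowest, 39.3 after 8 h of anti-IgM. Slc38a9, an arginine sensor, ranged from 3.38 to 17.7 and Rragd, a Rag GTPase, from 1.92 to 7.36 where it was assembled. Autophagy and vacuole fusion genes had 1 higher and 4 lower of 23 with anti-IgM at 8 h (median -0.10), with 10.8% and 10.5% of all genes. Gabarapl2, of the ATG8 family, was at 42.6, then 11.4, 19.8 and 11.5, and 12.2, 19.4 and 23.5, highest in the unstimulated library, but by exon density at 19.2 unstimulated and 10.6 to 15.5 in culture. Gabarapl1, a related gene, was at 6.08, then 24.3, 15.6 and 25.9, and 11.7, 11.3 and 9.87, above the unstimulated level in every cultured library. Map1lc3a, which belongs to the same family, was at 11.9 unstimulated and 3.06 to 7.55 in culture. Uvrag, an autophagosome maturation gene, was at 74.9 unstimulated and 21.4 to 40.1 in culture by FPKM, but by exon density at 28.9 and 16.0 to 34.3.

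MHC class II processing genes, whose products meet antigen in these compartments, had 0 higher and 6 lower of 9 with anti-IgM at 8 h (median -1.67), 0 and 4 of 10 with BAFF (-0.65) and 0 and 5 of 10 with both (-1.22). Of all genes, 10.8% were higher and 10.5% lower with anti-IgM, 5.66% and 4.35% with BAFF, and 12.3% and 8.91% with both. At 30 h it was 0 and 4 of 9 with anti-IgM, 2 and 0 of 9 with BAFF and 0 and 4 of 9 with both. The shares of all genes were then 8.44% and 7.32%, 5.29% and 4.1%, and 8.37% and 7.89%. The 2 higher genes with BAFF were H2-Ab1 (243 unstimulated, 709.7 FPKM) and H2-DMb1 (63.4, 219). At 8 h and at 30 h the medians of the B cell markers were lower with anti-IgM and with both too, as given above. Ciita, the class II transactivator, was at 94.5, then 13.8, 35.8 and 18.9, and 15.6, 65.0 and 29.5 FPKM. H2-Eb1, a class II beta chain, was at 1539 unstimulated and from 450.6 to 1127 in culture, H2-Ob from 48.1 to 201 and H2-DMa from 41.9 to 150.1 over the 7 libraries. Ciita was higher with BAFF alone than in the anti-IgM and the both-stimuli library of the same time, as Ctss and Acp5 were. Directly against BAFF, 4 of 9 class II genes were lower with anti-IgM at 8 h and 5 of 9 at 30 h, where 8.4% and 4.7% of all genes were lower.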

How the data were processed

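The submitters' processing notes name Cufflinks 2.0.2 for assembly, TopHat2 2.0.5 over Bowtie2 2.0.0.7, the mm10 build, and CASAVA 1.8.2. The authors deposited FPKM for every transcript assembled in a library, with bounds read here as 2 SD of counting error, and merged models that carry no values. The labels' protocols give poly-dT priming of the RNA.

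Transcripts of at least 300 bases were named by same-strand exon overlap with the merged models and their FPKM summed per gene. Shorter pieces were left out, although they held 66.6% to 74.4% of a library's summed FPKM. Exon density used every piece on either strand, so reads of overlapping or neighbouring genes can enter it, and 16 of the 32 genes had an expressed gene within 1000 bases. The pseudocount was 1. No tests were run. The counting rule was checked on simulated data.

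Full values were given for the 12 genes counted in most of the 15 comparisons, Tfeb and Tfe3 among them, and up to 4 genes per pathway list were named by the same rule. The 32 genes and the pathway and marker lists were chosen with earlier results of these data known. The separate pieces, the Lamp2 forms, the assembled starts and the all-gene shares for intervals alone and for the time order were looked at after the values were seen. The 11 alternatives covered the pseudocount, filters, scaling, the intervals and how transcripts are summed. Python 3.11.15, numpy 2.4.6, pandas 2.3.3, scipy 1.17.1 and matplotlib 3.10.9 were used.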

Additional observations from a re-analysis of the deposited data

How the results depend on the processing

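No paired analysis was possible because each condition had 1 library and the labels give no replicate numbers. Of the 39 differences counted against the unstimulated library, 15 stayed counted the same way under all 11 alternatives: Cd63 in all cultured libraries but BAFF at 8 h and both at 30 h, Psap and Tfeb at 8 h with anti-IgM and with both, Ctsb at 8 h with BAFF and with both, Ctsh and Ctss with anti-IgM at 8 h, Neu1 at 30 h with anti-IgM and with both, and Grn with both at 30 h. Over all 48 counted differences, 21 were lost with a pseudocount of 5, 18 by exon density, 14 with the most abundant transcript and 3 with either scaling. The other alternatives lost none. Some of them, such as dropping the condition on the intervals or the filter on low values, could not remove a counted difference.

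Against the unstimulated library, a pseudocount of 5 left 1 higher with anti-IgM at 8 h, 1 higher and 2 lower with BAFF at 8 h, 1 higher and 3 lower with both at 8 h, 2 lower with anti-IgM at 30 h and 1 higher with both at 30 h. The most abundant transcript gave 4 higher with anti-IgM at 8 h, 2 lower with BAFF at 8 h, 4 higher and 2 lower with anti-IgM at 30 h, and 3 higher, 1 lower and a median of -0.0055 with BAFF at 30 h. Exon density gave 1 higher with BAFF at 8 h, 2 lower with anti-IgM, 0 lower with BAFF and 1 lower with both at 30 h. Scaling to the median of expressed genes moved the median of all genes with anti-IgM at 8 h from 0.04 to -0.12 and gave 11 lysosome genes lower, with a median of -0.67. For both at 8 h it gave 1 higher and a median of -0.49. Scaling to the upper quartile gave medians of -0.65 (anti-IgM), -0.43 (BAFF) and -0.57 (both) at 8 h, with 1 higher and 11 lower for both. Relative to all genes, the anti-IgM median at 8 h was -0.53 as reported, -0.55 with either scaling. Gla with anti-IgM at 30 h against unstimulated turned to 0.066 with the most abundant transcript, and Lamp2 with BAFF at 30 h against 8 h to 0.073 by exon density. The cause of these shifts was not tested, beyond the split assemblies named above. Separate assembly in each library, depth and 1 library per condition limit all values.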

Other observations

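Of the 32 lysosome genes, 14 had their highest FPKM in the unstimulated library and 7 their lowest there. The anti-IgM library of 8 h held the lowest FPKM of 10 genes, and BAFF at 30 h of 0. By exon density the lowest values were in the unstimulated library for 8 genes, with both at 8 h for 7 and with anti-IgM at 8 h for 6. Assembly into separate pieces touched 7 of the 32 genes, in 12 of 223 combinations of gene and library. In most of these the second piece was small, as for Neu1 in the unstimulated library (33.0 and 2.84 FPKM), while for Npc1, Lamp2 and Tfe3 the second piece was large in 1 library each. Partial models that overlap in position, as for Gla in the unstimulated library, are not in this count. TCACGTGA was also found in 5 of 19 promoters of other lysosomal membrane and sorting genes (26.3%), 1 of 31 of other hydrolases (3.23%) and 0 of 20 of the nutrient sensing list.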
